A study of Arabidopsis thaliana with 12 samples.

Results

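AZI1, EARLI1 and 3 further lipid-transfer genes of Arabidopsis thaliana were followed in whole seedlings after treatment with a non-virulent bacterium. The members are AZI1 (AT4G12470), EARLI1 (AT4G12480), their neighbours AT4G12490 and AT4G12500, and DIR1 (AT5G48485), which lies on another chromosome. They are 5 of 27371 listed genes and were found by their identifiers. The set was chosen by the FPKM of AZI1, which differed between the genotype labels in these data, so that difference is described below without a test. All 5 genes passed the filter on low values, a mean of at least 1 FPKM (fragments scaled to transcript length and to the mapped fragments of the library, a level per length that can be compared between genes).

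The study asked how AtG3BP1, a plant relative of the human stress granule protein G3BP1, affects immunity. It compared 4 groups of 3 libraries, all from seedlings of the ecotype Columbia-0 grown for 14 d on Murashige and Skoog medium. The groups are WT mock, WT hrcC, Atg3bp1 mock and Atg3bp1 hrcC. Atg3bp1 stands for a line with a T-DNA insertion in AtG3BP1, a single allele in the RNA-seq experiment, and hrcC for 24 h with Pst DC3000 hrcC-, a Pseudomonas syringae strain without a working type III secretion system, which plants detect although it injects no effectors.

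Lipid-transfer proteins are small secreted proteins in which disulfide bonds hold a pocket that can take up lipids. AZI1 and EARLI1 belong to the hybrid proline-rich type, in which a proline-rich stretch precedes the lipid-transfer domain. AZI1, whose name stands for azelaic acid induced, and DIR1, whose name stands for defective in induced resistance, are known for systemic acquired resistance, the state in which leaves far from an infected leaf respond faster to a later attack. DIR1 moves through the phloem, AZI1 is needed for priming by azelaic acid, and EARLI1 has been tied to aluminium and cold stress as well as to this priming.

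AtG3BP1 itself went against the labels. It stood at 0.0179 to 0.426 FPKM in the 6 libraries labelled WT and at 11.4 to 18.4 FPKM in the 6 libraries labelled Atg3bp1. Every statement on genotype below therefore concerns libraries labelled WT or Atg3bp1, and its direction holds for the labels only. The average of both responses to hrcC does not depend on which label is which. The summed FPKM per library ran from 428556 to 494126. The study states an approximate number of reads per sample, but the exact depth of each library is unknown, since the values are not counts. The factors that brought the libraries to a common 75th percentile ran from 0.866 to 1.199, highest in replicate 1 of WT hrcC and next in replicates 3 and 2 of WT mock (1.15 and 1.11). Markers of leaf and root were both present, the 7 leaf markers above 0 in every library with a sum of 12764 to 27003 FPKM, so the samples fit whole seedlings. The 8 root markers summed to 29.1 to 83.8 FPKM, with MRN1, an enzyme gene of root metabolism, at 0 in WT mock replicate 2 and Atg3bp1 mock replicate 3, and NRT2:1, a nitrate transporter, at 0 in WT hrcC replicate 1. In such bulk samples, fewer cells of a type and less RNA per cell cannot be told apart.

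The first 4 genes stand side by side on the minus strand of chromosome 4, each with a single exon, within 13869 bp of the TAIR10.1 assembly. AZI1 occupies chr4:7401087-7401951, EARLI1 chr4:7406065-7406994, AT4G12490 chr4:7409621-7410406 and AT4G12500 chr4:7413990-7414955, with gaps of 4113, 2626 and 3583 bp. DIR1 lies at chr5:19646028-19646840, also on the minus strand. The last 150 coding bases of the 4 neighbours are shown because they make visible how close the copies are, and so how far a read can be told from its paralog (TAIR10.1, minus strand, chr4:7401371-7401520 for AZI1, chr4:7406371-7406520 for EARLI1, chr4:7409830-7409979 for AT4G12490 and chr4:7414369-7414518 for AT4G12500). Capitals mark the 130 bases, 86.7%, that are the same in all 4 genes.
AZI1: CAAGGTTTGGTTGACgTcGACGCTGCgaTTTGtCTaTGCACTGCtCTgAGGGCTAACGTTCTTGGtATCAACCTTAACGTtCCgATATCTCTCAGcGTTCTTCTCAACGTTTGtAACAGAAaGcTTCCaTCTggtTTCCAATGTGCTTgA
EARLI1: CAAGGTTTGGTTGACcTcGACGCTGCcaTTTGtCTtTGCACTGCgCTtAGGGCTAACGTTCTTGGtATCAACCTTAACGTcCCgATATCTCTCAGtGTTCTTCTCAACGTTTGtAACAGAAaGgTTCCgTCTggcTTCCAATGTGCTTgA
AT4G12490: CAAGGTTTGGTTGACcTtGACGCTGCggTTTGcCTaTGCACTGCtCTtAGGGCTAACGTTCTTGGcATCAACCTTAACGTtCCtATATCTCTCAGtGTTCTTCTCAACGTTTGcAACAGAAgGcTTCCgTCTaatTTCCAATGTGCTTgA
AT4G12500: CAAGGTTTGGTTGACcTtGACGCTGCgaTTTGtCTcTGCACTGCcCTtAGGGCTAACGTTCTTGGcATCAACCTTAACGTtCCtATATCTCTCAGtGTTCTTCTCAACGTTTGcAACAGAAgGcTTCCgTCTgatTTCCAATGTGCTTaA

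Over the whole coding sequence, AT4G12490 and AT4G12500 were the closest pair, with 92.9% of aligned bases the same, and AZI1 and AT4G12500 the most distant of the 4 neighbours, with 86.5%. DIR1 shared 60.5% with AZI1. The aligner was run with up to 2 mismatches and 1 reported place per read. Windows of 100 bases, the read length kept after trimming, were therefore searched along each transcript. No window of the 5 genes occurred a second time in the 5 nuclear chromosomes. Within 2 mismatches, 16 windows of AT4G12490 matched AT4G12500 and 16 the reverse, which is 2.33% and 1.85% of their windows, and no window of AZI1, EARLI1 or DIR1 matched another member. The levels of AT4G12490 and AT4G12500 are uncertain to that extent. Genes on the opposite strand overlap EARLI1 over 32 bp (AT4G12485), AT4G12490 over 282 bp (AT4G12495) and DIR1 over its whole 813 bp (AT5G48480). The first 2 had no row in the table, and AT5G48480 ran from 8.80 to 25.8 FPKM. The library kit kept the strand, but whether the FPKM used it is not given in the sources used here, so reads of DIR1 and AT5G48480 may not be told apart.

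The 200 bases before the annotated transcript start are shown for AZI1, EARLI1 and AT4G12490, because AZI1 and AT4G12490 rose after hrcC and EARLI1 did not pass the test (chr4:7401952-7402151 for AZI1, chr4:7406995-7407194 for EARLI1 and chr4:7410407-7410606 for AT4G12490, TAIR10.1, minus strand). Capitals mark TTGAC (its reverse GTCAA was searched too), the core of the W-box, a site of WRKY transcription factors, which act widely in plant immunity. The core alone was searched, without the base beside it that belongs to the full site, so a marked stretch need not be a full W-box. Binding was not tested.
AZI1: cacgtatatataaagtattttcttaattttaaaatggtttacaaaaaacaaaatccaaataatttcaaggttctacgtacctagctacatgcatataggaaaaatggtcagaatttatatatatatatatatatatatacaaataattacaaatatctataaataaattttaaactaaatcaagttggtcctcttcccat
EARLI1: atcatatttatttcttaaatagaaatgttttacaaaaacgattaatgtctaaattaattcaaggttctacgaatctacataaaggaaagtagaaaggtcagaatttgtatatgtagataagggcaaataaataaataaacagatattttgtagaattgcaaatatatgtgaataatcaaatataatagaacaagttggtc
AT4G12490: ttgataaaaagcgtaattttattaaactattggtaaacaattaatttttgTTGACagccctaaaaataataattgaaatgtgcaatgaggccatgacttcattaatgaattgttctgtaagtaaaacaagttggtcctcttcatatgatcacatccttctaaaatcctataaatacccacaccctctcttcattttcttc

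The W-box core occurred once in AT4G12490, 150 bases before the start. It did not occur in these windows of AZI1, EARLI1 or DIR1. Of 27443 windows of this length before protein-coding genes, 38.7% held it on either strand. The as-1 core TGACG, bound by TGA factors (15.7% of all windows), the G-box CACGTG (5.64%) and the GCC-box GCCGCC (1.46%), searched on both strands, occurred in none of the 4 windows. AZI1 and EARLI1 were the most alike here, with 75.1% of aligned bases the same, while the other pairs ran from 52.7 to 57.1%. The windows were set from the annotated transcript starts, which lie 95 bp before the coding sequence in AZI1, 117 bp in EARLI1 and 28 bp in AT4G12490. The stretch caagttggtc ends at the start in EARLI1, upstream of it in AZI1 and furthest upstream in AT4G12490. The windows are thus shifted against each other, which limits the comparison of identity and of motifs.

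AZI1 was lowest in WT mock, at 6.74, 8.27 and 3.60 FPKM in replicates 1 to 3. In Atg3bp1 mock it stood at 62.2, 47.9 and 20.6 FPKM. After hrcC it stood at 34.4, 8.99 and 110 FPKM under the label WT and at 240, 92.4 and 116 FPKM under the label Atg3bp1. All WT mock libraries lay below all other libraries, and the 3 Atg3bp1 hrcC libraries lay above all Atg3bp1 mock libraries. The WT hrcC libraries spanned 12.2-fold and overlapped both Atg3bp1 groups, so neighbours in the order WT mock, Atg3bp1 mock, WT hrcC, Atg3bp1 hrcC were separate from each other by their ranges only at the first step.

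EARLI1 showed another pattern. It stood at 11.9, 7.32 and 7.72 FPKM in WT mock and at 52.6, 25.5 and 24.5 FPKM in Atg3bp1 mock. In WT hrcC, replicates 1 and 2 were below every WT mock library at 4.50 and 2.104 FPKM, and replicate 3 was above them at 41.9 FPKM. In Atg3bp1 hrcC it stood at 67.7, 37.3 and 46.1 FPKM, which overlapped Atg3bp1 mock.

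AT4G12490 stood at 5.93, 9.33 and 4.35 FPKM in WT mock and at 21.7, 14.2 and 6.48 FPKM in Atg3bp1 mock. After hrcC it reached 10.4, 24.1 and 135 FPKM under the label WT and 131, 76.6 and 73.6 FPKM under the label Atg3bp1. Under each label, every hrcC library lay above every mock library. AT4G12500 was the lowest of the 5 genes on average, at 4.64, 3.10 and 2.27 FPKM in WT mock and at 5.76, 4.47 and 4.15 FPKM in Atg3bp1 mock. It stood at 5.86, 3.89 and 28.4 FPKM in WT hrcC and at 25.2, 11.4 and 15.5 FPKM in Atg3bp1 hrcC, so that its mock and hrcC libraries were separate under the label Atg3bp1 and overlapped under the label WT.

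DIR1 was the highest of the 5 genes in mock. It stood at 76.4, 63.3 and 51.9 FPKM in WT mock, at 135, 131 and 73.4 FPKM in Atg3bp1 mock, at 33.8, 81.5 and 128 FPKM in WT hrcC and at 71.3, 102 and 77.3 FPKM in Atg3bp1 hrcC. Every group overlapped at least 1 other, and the lowest DIR1 library of all was WT hrcC replicate 1.

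**Figure D1:**
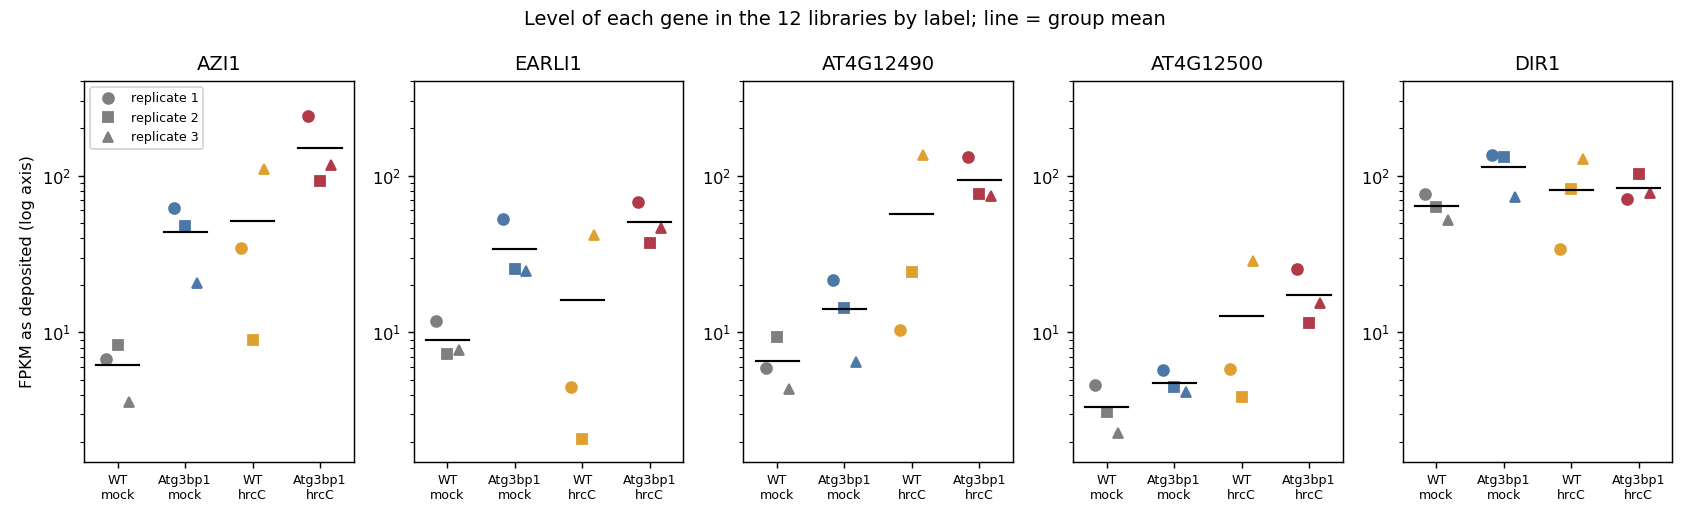
FPKM as deposited (log axis) of the 5 genes in each of the 12 libraries, by genotype label and treatment, with 1 marker shape per replicate number and a black line at the group mean. AZI1, EARLI1, AT4G12490 and AT4G12500 spread widely within WT hrcC, where replicate 3 is the highest for all 5 genes, while DIR1 stays between 33.8 and 135 FPKM.

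WT hrcC replicate 3 stood apart for these genes. After scaling it was 3.80 times the higher of the other WT hrcC libraries for AZI1, 11.1 times for EARLI1, 5.30 times for AT4G12490, 5.76 times for AT4G12500 and 1.48 times for DIR1. Of the 17158 genes tested, 77, or 0.449%, were at least 3 times both other libraries there. This library was neither among those with a high scaling factor nor at an edge of the leaf marker sums. Its root marker sum of 30.6 FPKM was near the low end of the range over all libraries, 29.1 to 83.8 FPKM. The responses, the label differences, the sum and the correlations are also given without it.

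The question put to the 5 genes was whether they respond to hrcC. AZI1, AT4G12490 and AT4G12500 rose on the average of both labels, and EARLI1 and DIR1 did not pass the test. AT4G12490 changed most of the 5, by 2.50 on the log2 scale (SE 0.52, n = 3 per group, limma, adjusted p = 0.00876), followed by AZI1 at 2.05 (SE 0.50, limma, adjusted p = 0.0217) and AT4G12500 at 1.43 (SE 0.39, limma, adjusted p = 0.0370). EARLI1 had a log2 fold change of 0.26 with a 95% interval of -0.89 to 1.40 (limma, adjusted p = 0.833). DIR1 had -0.10 with an interval of -0.79 to 0.59 (limma, adjusted p = 0.902), which leaves out a 2-fold rise or fall. Fold changes are on the scale of log2 of scaled FPKM plus 1, which makes those of low genes smaller, and a gene was called at an adjusted p of at most 0.05 and at least 2-fold. The count of 3 of 5 genes called higher stands beside 3.28% of all tested genes called higher and 0.705% called lower. The p-values measure the spread between libraries of separate experiments, as the study describes them.

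The 3 calls were not equally firm. AT4G12490 was called under all 22 alternative settings and left-out libraries. AZI1 lost its call without WT mock replicate 3, Atg3bp1 mock replicate 3 or Atg3bp1 hrcC replicate 1, with adjusted p between 0.0520 and 0.0649, and without WT hrcC replicate 3 it stood at 1.61 (limma, adjusted p = 0.0261). AT4G12500 lost its call in 8 of the 22, with adjusted p up to 0.104, namely with no filter and without WT mock replicate 2 or 3, any Atg3bp1 mock replicate, or Atg3bp1 hrcC replicate 1 or 3. Without WT hrcC replicate 3, EARLI1 turned from 0.26 to -0.32 (limma, adjusted p = 0.572), while AT4G12490 stood at 1.98 and AT4G12500 at 1.03, both still called.

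Taken label by label, no tested member passed the test with all 12 libraries under the main settings. AT4G12490 passed it under the label Atg3bp1 with some alternative settings, given below. The WT mock and Atg3bp1 mock libraries also entered the comparison that chose AZI1, so for AZI1 these responses are values only, a log2 fold change of 2.29 (SE 0.70) under the label WT and 1.81 (SE 0.70) under the label Atg3bp1. AT4G12490 had 2.22 (SE 0.73, limma, adjusted p = 0.128) and 2.78 (SE 0.73, limma, adjusted p = 0.0586). AT4G12500 had 1.22 (limma, adjusted p = 0.269) and 1.65 (limma, adjusted p = 0.148). EARLI1 had -0.11 and 0.63, and DIR1 had 0.17 and -0.36, with adjusted p of 0.800 or higher in limma. Of all tested genes, 2.87% were called higher and 0.321% lower under the label WT, and 2.57% higher and 0.554% lower under the label Atg3bp1, and the 0 of 4 tested members called stand beside that background. At an unadjusted p under 0.05, 2 of these 4, AT4G12490 and AT4G12500, were higher under each label, beside 9.08% of all tested genes under the label WT and 7.13% under the label Atg3bp1. Without WT hrcC replicate 3 the WT response was 1.41 for AZI1, -1.26 for EARLI1, 1.19 for AT4G12490, 0.42 for AT4G12500 and -0.28 for DIR1. Without WT hrcC replicate 1, by contrast, AT4G12490 passed the test under the label WT, at 3.10 (limma, adjusted p = 0.0130). In the fit without WT hrcC replicate 3, AT4G12490 and AT4G12500 passed the test under the label Atg3bp1, at 2.77 (limma, adjusted p = 0.00464) and 1.64 (limma, adjusted p = 0.0106).

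**Figure D2:**
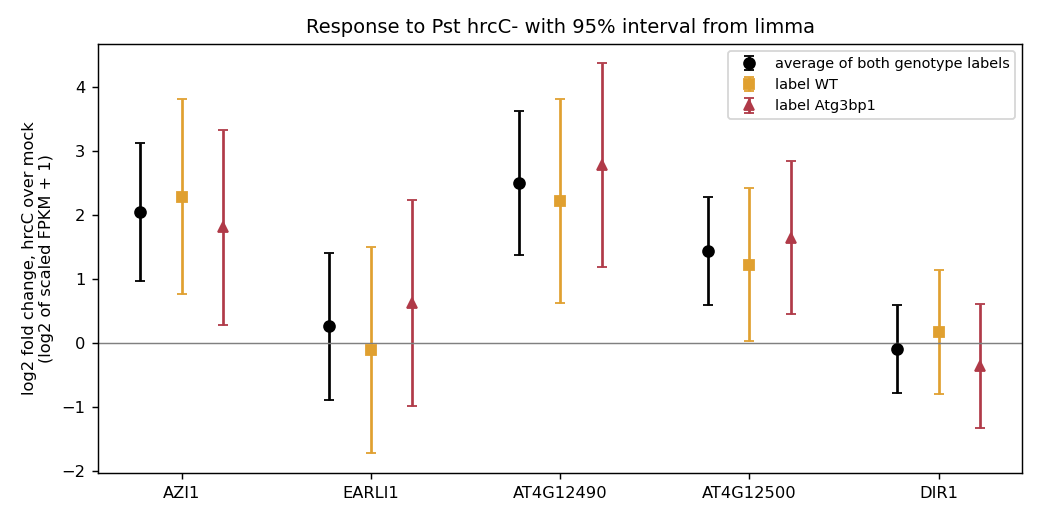
Log2 fold change of hrcC over mock on scaled FPKM plus 1, with 95% intervals from limma, for the average of both genotype labels (black), the label WT (yellow) and the label Atg3bp1 (red). The intervals of the average response lie above 0 for AZI1, AT4G12490 and AT4G12500, and include 0 for EARLI1 and DIR1.

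The difference between the genotype labels, through which AZI1 was picked, is given as a description. AZI1 was higher under the label Atg3bp1 by 2.66 on the log2 scale in mock and by 2.18 after hrcC (SE 0.70 each). EARLI1 was higher by 1.88 and 2.61 (SE 0.74), AT4G12490 by 1.03 and 1.58 (SE 0.73), AT4G12500 by 0.54 and 0.96 (SE 0.55) and DIR1 by 0.91 and 0.37 (SE 0.45). The values after hrcC moved with the WT hrcC libraries. Without replicate 3 they were 3.06 for AZI1, 3.76 for EARLI1, 2.61 for AT4G12490, 1.76 for AT4G12500 and 0.82 for DIR1, without replicate 2 they were 1.36, 1.90, 1.43, 0.50 and 0.54 in the same order, and without replicate 1 they were 2.11, 2.18, 0.70, 0.61 and -0.24. Since AtG3BP1 goes against the labels, these directions hold for the labels only. In mock, the ranges of AZI1 and EARLI1 did not overlap between the labels, while those of the other 3 genes did. A higher level under the label Atg3bp1 in mock was not particular to the members. After hrcC, 10 of 17 other tested EARLI1-type genes and 2 of 8 tested type 1 lipid-transfer genes, both taken up below, were above 0 in the fitted difference. In mock, all 17 and all 8 were above 0, with medians of 0.87 and 0.60 beside -0.02 over all tested genes. Root markers moved with this comparison, with a sum of 45.0 to 52.0 FPKM in WT mock and 45.0 to 83.8 FPKM in Atg3bp1 mock, and 6 of 6 tested root markers above 0 in the fitted difference (median 0.55). MRN1 and NRT2:1, root markers under the filter, had lower means in Atg3bp1 mock (0.0243 and 0.946 FPKM) than in WT mock (0.0587 and 1.06 FPKM). AT2G01021, a single gene that takes up a large part of these libraries, also differed, at 4.03 to 8.33% of the summed FPKM in WT mock and 11.4 to 12.6% in Atg3bp1 mock, and it reached 20.3% and 31.6% in Atg3bp1 hrcC replicates 2 and 3. The part of either in the result was not tested. With the libraries of high scaling factor as a further term, the differences in mock were smaller, at 1.15 for EARLI1, 0.10 for AT4G12490, -0.10 for AT4G12500 and 0.05 for DIR1. The response under the label Atg3bp1 minus that under the label WT was -0.48 for AZI1 (SE 0.99), 0.74 for EARLI1 (SE 1.049), 0.55 for AT4G12490 (SE 1.04), 0.42 for AT4G12500 (SE 0.77) and -0.53 for DIR1 (SE 0.63). These values rested on single libraries too. Without WT hrcC replicate 3 the difference was 0.40 for AZI1 (SE 0.76), 1.89 for EARLI1 (SE 0.52), 1.58 for AT4G12490 (SE 0.67), 1.23 for AT4G12500 (SE 0.46) and -0.09 for DIR1 (SE 0.57), and without WT hrcC replicate 1 that of DIR1 was -1.15 (SE 0.42).

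The 4 neighbours were also taken as 1 row, the sum of their FPKM. Their summed FPKM ran from 17.9 to 29.2 in WT mock, from 55.7 to 142 in Atg3bp1 mock, from 39.1 to 316 in WT hrcC and from 218 to 464 in Atg3bp1 hrcC. Under each label, all hrcC sums lay above all mock sums. The sum rose on the average of both labels by 1.77 on the log2 scale (SE 0.46, limma, adjusted p = 0.0299), and by 1.30 without WT hrcC replicate 3 (limma, adjusted p = 0.0147). It lost the call without WT mock replicate 2 or 3, Atg3bp1 mock replicate 2 or 3, or Atg3bp1 hrcC replicate 1 or 3, with adjusted p up to 0.0868.

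The makeup of this sum differed between mock and hrcC. EARLI1 made up 40.7%, 26.1% and 43.0% of it in WT mock and 37.0%, 27.7% and 44.0% in Atg3bp1 mock. After hrcC it made up 8.16%, 5.38% and 13.3% under the label WT and 14.6%, 17.1% and 18.3% under the label Atg3bp1. No hrcC library reached the lowest mock library. On the average of both labels the share was lower after hrcC, with a difference of -23.6 percentage points, given without a test because the shares were examined only after the levels had been seen. Leaving out any 1 library gave a difference between -26.2 and -21.7 points, and the share does not depend on how the libraries are scaled. A share also falls when the other genes of the sum rise, and the level of EARLI1 itself had an average response of 0.26 on the log2 scale and was not called.

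AT4G12490 held 11.6 to 33.3% in mock and 18.8 to 61.7% after hrcC, a difference of 16.0 points that ran from 10.8 to 21.5 points with 1 library left out. AZI1 held 20.0 to 52.0% in mock and 23.0 to 62.4% after hrcC (difference 9.24 points), and AT4G12500 held 4.05 to 15.9% and 5.24 to 10.6% (difference -1.59 points), so the ranges of these 3 genes overlapped. The SD of the shares was widest in WT hrcC, at 20.2 points for AZI1 and 21.5 points for AT4G12490. There AZI1 led with 62.4% in replicate 1, and AT4G12490 led with 61.7% in replicate 2 and 42.8% in replicate 3.

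**Figure D3:**
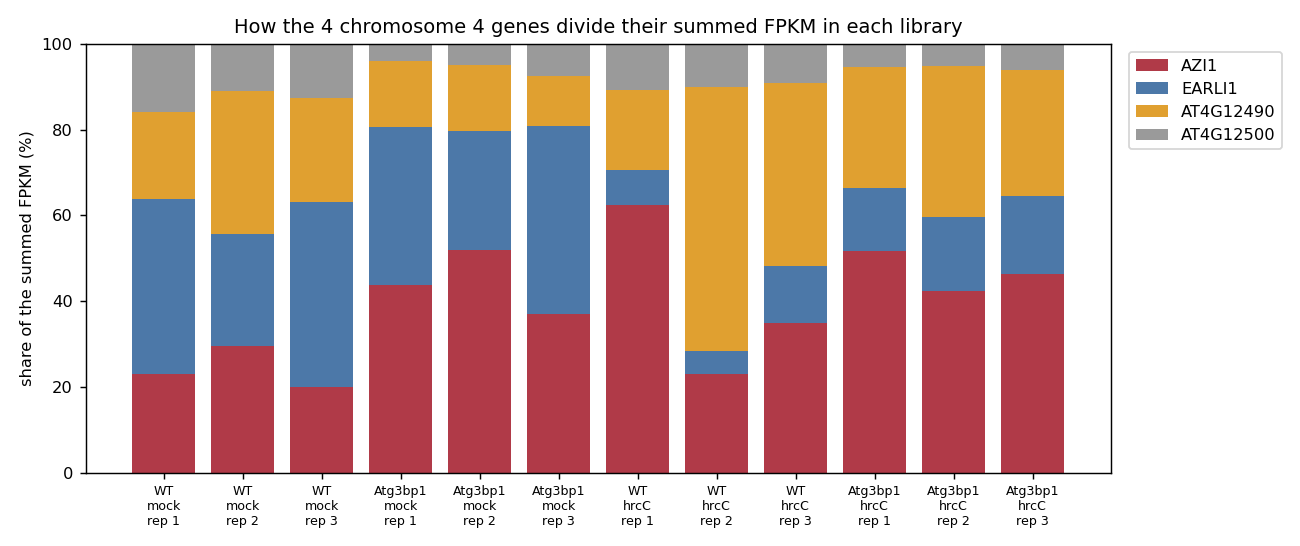
Share of the summed FPKM of the 4 chromosome 4 genes that each gene makes up (percent, 1 bar per library, in the order WT mock, Atg3bp1 mock, WT hrcC, Atg3bp1 hrcC). The EARLI1 band is 26.1 to 44.0% in the 6 mock libraries and 5.38 to 18.3% in the 6 hrcC libraries.

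Correlations over the 12 libraries are given as a description without a test, since the libraries share groups and scaling. On the scaled log2 values, Pearson's r was 0.93 between AT4G12490 and AT4G12500, 0.88 between AZI1 and AT4G12500, 0.87 between AZI1 and AT4G12490, 0.81 between AZI1 and EARLI1, 0.72 between EARLI1 and AT4G12500 and 0.64 between EARLI1 and AT4G12490. With DIR1, r was 0.64 for EARLI1, 0.48 for AT4G12490, 0.45 for AZI1 and 0.39 for AT4G12500, so EARLI1 was as close to DIR1 as to AT4G12490. Among all tested genes, AT4G12500 was 44th in its likeness to AZI1, AT4G12490 64th, EARLI1 165th and DIR1 2619th. After the group means were removed, r ran from 0.73 to 0.97 among the neighbours. With DIR1 it was then 0.82 for AT4G12490, 0.55 for EARLI1, 0.55 for AT4G12500 and 0.35 for AZI1. These values rested in part on WT hrcC replicate 3. Without it, r among the neighbours after removal of the group means ran from 0.29 to 0.85. The closest pair, EARLI1 and AT4G12500, went from 0.97 to 0.85, AZI1 and EARLI1 from 0.87 to 0.72, and AZI1 and AT4G12500 from 0.88 to 0.71. The pairs with AT4G12490 fell further, from 0.73 to 0.33 with AZI1, from 0.82 to 0.29 with EARLI1 and from 0.82 to 0.38 with AT4G12500. With DIR1, the values without that library were 0.70 for AT4G12490, -0.001 for EARLI1, 0.07 for AT4G12500 and -0.18 for AZI1. Before removal of the group means, r among the neighbours was 0.62 to 0.92 without that library.

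Among genes outside the set, those most like AZI1 over the 12 libraries were WRKY15, a WRKY transcription factor (r 0.95, 5.998 to 27.7 FPKM), WAKL6, a wall-associated kinase-like gene (r 0.95, 0.932 to 4.56 FPKM), and PPDK, pyruvate orthophosphate dikinase (r 0.95, 1.28 to 9.14 FPKM). Most like EARLI1 were AT1G01770 (r 0.91), AT1G24530 (r 0.90) and FH8, a formin that acts on actin (r 0.89). Most like DIR1 were PERK9, a proline-rich receptor-like kinase (r 0.94), AT3G56880 (r 0.93) and GH3.17, which joins auxin to amino acids (r 0.93). Each is the top of all 17158 tested genes, so a high r is chosen, not found. Without WT hrcC replicate 3 the 9 values of r ran from 0.88 to 0.95.

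The wider family of EARLI1-type genes, 17 tested beside the 4 neighbours, divided after hrcC. On the average of both labels 3 rose, 3 fell and 11 were not called, with a median of -0.63 beside -0.07 over all tested genes, of which 3.28% were called higher and 0.705% lower. AT4G12545 rose from 23.4 ± 9.11 to 203 ± 12.01 FPKM under the label WT and from 32.3 ± 3.98 to 124 ± 38.3 FPKM under the label Atg3bp1 (SD, n = 3), or 2.52 on the log2 scale (SE 0.20, limma, adjusted p = 4.77e-06). AIR1, named for its induction by auxin in root cultures, rose from 24.3 ± 9.47 to 188 ± 5.40 FPKM under the label WT and from 32.2 ± 6.81 to 115 ± 46.5 FPKM under the label Atg3bp1 (log2 fold change 2.38, SE 0.24, limma, adjusted p = 4.02e-05). Their WT hrcC libraries were close to each other, from 183 to 193 FPKM for AIR1, and spread less than the 8.99 to 110 FPKM of AZI1. AT4G22470 rose by 2.22 (SE 0.61, limma, adjusted p = 0.0406), from 0.0424 to 3.90 FPKM in mock to 0.886 to 28.1 FPKM after hrcC, and WT hrcC replicate 3 was the highest of all 12 libraries there as well. Without that library it rose by 1.58 (SE 0.36, limma, adjusted p = 0.0207). AT4G12545, AIR1, AT4G22460 and AT4G22470 each overlap a gene on the opposite strand, over 444, 642, 575 and 1317 bp. No window of 100 bases of AT4G12545 or AIR1 occurred a second time in the genome. Matches within 2 mismatches were searched only among the 5 members, so reads shared between AT4G12545 and AIR1 at that setting were not examined. AT4G12545 and AIR1 were called under all 22 alternatives, while AT4G22470 lost its call in 7, namely with no filter and without WT mock replicate 2 or 3, Atg3bp1 mock replicate 2 or 3, or Atg3bp1 hrcC replicate 1 or 3.

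AT4G22460 fell by 1.13 (SE 0.22, limma, adjusted p = 0.00650), AT5G46890 fell by 1.42 (SE 0.21, limma, adjusted p = 0.000901) and AT5G46900 fell by 1.26 (SE 0.19, limma, adjusted p = 0.000934), all on the log2 scale, and AT4G22460 lost its call without WT mock replicate 1. The last 2 genes shared 103 windows of 100 bases without a mismatch, 18.9% and 15.7% of their windows, so their values are not fully separate. Root markers moved the same way as these genes, with 0 of 6 tested markers above 0 in the average response, a median of -0.54 and 0 called by limma, with 4 lower at an unadjusted p under 0.05, beside 13.03% of all tested genes. The part of the root in these falls was not tested.

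Along chromosome 4 the array goes on beyond AT4G12500. AT4G12510 and AT4G12520, the next family members, had log2 fold changes of -0.70 (SE 0.25, limma, adjusted p = 0.105) and -0.57 (SE 0.24, limma, adjusted p = 0.175). They were at 25.4 to 115 and 40.6 to 135 FPKM, and 48.4% and 55.5% of their windows of 100 bases occurred a second time in the genome, so they are uncertain. AT4G12545 and AIR1 follow on the plus strand at chr4:7434199-7434858 and chr4:7439115-7439805. Rising genes therefore stood at both ends of the array, with EARLI1, AT4G12510 and AT4G12520, none of which passed the test, among them.

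**Figure D4:**
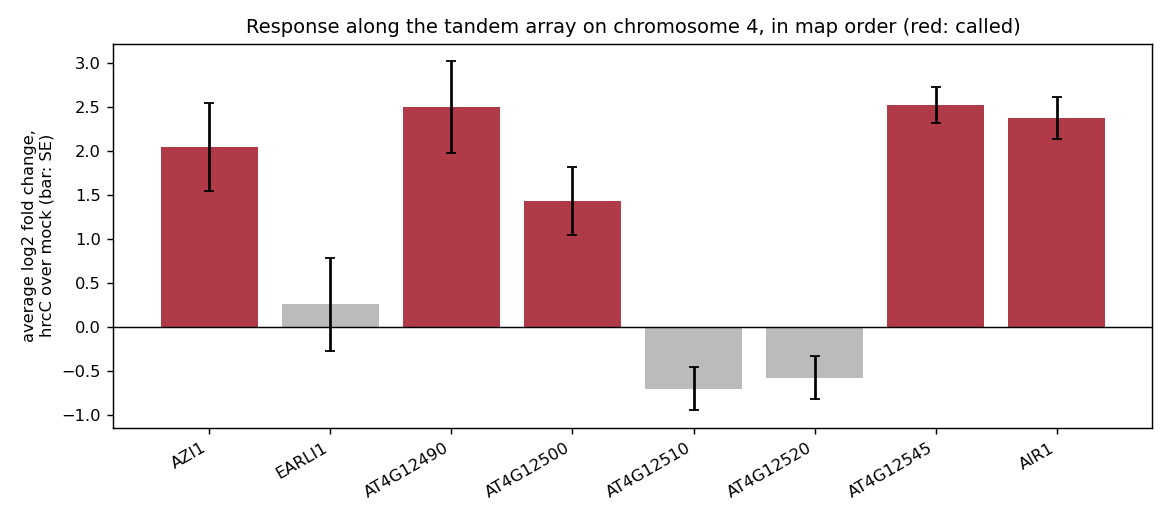
Average log2 fold change of hrcC over mock (bars, with the SE as error bar) for the tested EARLI1-type genes of the chromosome 4 array in map order, with called genes in red. AZI1, AT4G12490, AT4G12500, AT4G12545 and AIR1 lie between 1.43 and 2.52, and EARLI1, AT4G12510 and AT4G12520 between -0.70 and 0.26.

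Classical lipid-transfer genes of type 1, small proteins without the proline-rich stretch, gave no call. Of 12 listed, 8 were tested and 0 were called by limma in either direction on the average of both labels, with a median of -0.18, and at an unadjusted p under 0.05 0 were higher and 1 lower, beside 10.1% and 13.03% of all tested genes. LTP5 stood at 160 to 423 FPKM over all libraries, and its change was -0.01 on the log2 scale (SE 0.19, limma, adjusted p = 0.992). For LTP2, tied to the cuticle, it was 0.03 (SE 0.35, limma, adjusted p = 0.976).

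Of the genes for mobile signals of systemic acquired resistance, 16 were tested beside DIR1. On the average of both labels 2 rose and 0 fell in limma, with a median of 0.18, beside 3.28% of all tested genes called higher and 0.705% lower. At an unadjusted p under 0.05, 5 were higher and 0 lower, beside 10.1% and 13.03% of all tested genes. Both called genes encode methyl esterases that turn methyl salicylate back into salicylic acid. MES9 rose by 1.11 on the log2 scale (SE 0.17, limma, adjusted p = 0.00130) and MES1 by 1.29 (SE 0.24, limma, adjusted p = 0.00415). MES1 was low, at 0.252 to 0.870 FPKM in mock and 1.11 to 5.25 FPKM after hrcC, and the groups did not overlap. MES9 was just under 2-fold without WT hrcC replicate 3, at 0.96. BSMT1, FMO1, ALD1 and PDLP1 were listed too but fell under the filter, so their changes were not tested. BSMT1, which the paper links to lower salicylic acid, had higher means after hrcC. They went from 0.00414 to 1.66 FPKM (label WT) and from 0.00379 to 1.65 FPKM (label Atg3bp1). Means of FMO1 were also higher after hrcC under each label. Those of ALD1 were lower under each label, and that of PDLP1 was lower under the label Atg3bp1 only. MPK3, a kinase tied to priming, passed the p threshold under 2-fold, at 0.61 (SE 0.14, limma, adjusted p = 0.0176). Genes whose lipid products are placed in the same signalling gave values near 0. FAD7, a plastid fatty acid desaturase, had -0.15, MGD1 and DGD1, which make galactolipids, had 0.08 and -0.19, and GLY1, which makes glycerol-3-phosphate, had -0.13, all with adjusted p of at least 0.565 in limma.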

How the data were processed

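The authors prepared stranded mRNA libraries from whole seedlings and used Trimmomatic for trimming, TopHat for alignment to TAIR10 and Cufflinks for FPKM per library, as the submitters' processing notes and the study's methods name them. The deposited table holds FPKM, already divided by transcript length and mapped fragments, so no counts were available for a count test. The authors' Cuffdiff results were not used.

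FPKM were scaled to a common 75th percentile of expressed genes, filtered at a mean of 1 FPKM, which left 17158 genes, and put on a log2 scale with a pseudocount of 1 FPKM. limma 3.58.1 in R 4.3.3 was fitted to all 4 groups with a trend of the prior variance. The Benjamini-Hochberg method was applied over all tested genes, and a call needed an adjusted p of at most 0.05 and at least 2-fold. The average of both responses is orthogonal to the genotype contrasts that chose AZI1. The code of the fit was also run on simulated data with independent normal noise. That simulation held no outlying library such as WT hrcC replicate 3, so it does not show how firm the calls are. Sequences and positions were taken from RefSeq's TAIR10.1 genome and annotation (26703 of 27371 identifiers matched), with Python 3.11.15 and alignments by Biopython 1.88. The sequence upstream of AT4G12500 is not reported here.

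The members and the gene lists were chosen with earlier results of these data known. Named genes were the members, the called genes of the EARLI1-type and mobile-signal lists, and the 3 genes most correlated with each of AZI1, EARLI1 and DIR1. Other genes of the lists (AT4G12510, AT4G12520, LTP2, LTP5, MPK3, FAD7, MGD1, DGD1, GLY1, BSMT1, FMO1, ALD1 and PDLP1) were named after their values were seen. The alternatives changed the scaling, pseudocount, filter, prior variance, a replicate block, a term for libraries of high scaling factor, and left out each library in turn.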

Additional observations from a re-analysis of the deposited data

How the results depend on the processing

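FPKM do not give the exact depth of each library, so low values carry a counting error that cannot be worked out here. The spread within WT hrcC limits every response under the label WT. Over the 22 alternatives the number of members called ran from 1 to 3 on the average of both labels, from 0 to 1 under the label WT and from 0 to 2 under the label Atg3bp1, where the 1 on the average and the 2 under the label Atg3bp1 came from leaving out 1 library, as did the 1 under the label WT (AT4G12490, without WT hrcC replicate 1). Under the label Atg3bp1, 1 member, AT4G12490, was also called with a filter at a mean of 5 FPKM and with the libraries of high scaling factor as a term. Left-out libraries moved the summed neighbours between 1.30 and 2.03, and the sum missed the threshold with no filter (1.77, limma, adjusted p = 0.0590) and without any of 6 libraries. The cause was not tested.

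Values near 0 changed sign. With libraries left out, the average response of EARLI1 ran from -0.32 to 0.61 and of DIR1 from -0.32 to 0.21, and the response under the label WT from -1.26 to 0.60 for EARLI1 and from -0.28 to 0.79 for DIR1. The genotype label difference after hrcC ran from -0.24 to 0.82 for DIR1. The difference of the responses ran from -1.30 to 0.40 for AZI1, from 0.024 to 1.89 for EARLI1, from -0.32 to 1.58 for AT4G12490, from -0.033 to 1.23 for AT4G12500 and from -0.59 to 0.86 for the sum. The term for high scaling factors turned AT4G12500 in mock (-0.10), DIR1 under the label WT (-0.26) and after hrcC (-0.054), and the difference of responses of the sum (0.25).

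Samples with the same replicate number did not deviate together between mock and hrcC, the groups of each response (correlations of -0.40, -0.42 and 0.0019 under the label WT and -0.15, -0.16 and 0.17 under the label Atg3bp1). Between the labels they did so in mock, at 0.37, 0.10 and 0.31, and less evenly after hrcC, at 0.042, 0.43 and 0.10, where the label differences are given without a test. Over all combinations 7 of 18 pairs were above 0.1. A replicate block kept 3 members called on average, with adjusted p in limma of 0.0330 for AZI1, 0.0226 for AT4G12490 and 0.0454 for AT4G12500, and 0.0488 for the sum, and called 0 members under either label alone. It left the label difference of AZI1 in mock at 2.66 (SE 0.71).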
